A study of Mus musculus with 2 samples.

Results

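The 7 measured globin genes of the red cell and 3 further red cell genes, Alas2, Slc4a1 and Car2, were followed in sorted cells of the mouse sinoatrial node, the tissue that paces the heartbeat. They were taken by gene symbol from a list of 10, and all 10 were found among the 12557 genes of the deposited table. Both libraries came from embryos of the ICR strain that carried Hcn4-CreERT2, which makes a Cre recombinase that tamoxifen switches on, in cells with an active Hcn4 channel gene, and Rosa-tdTomato, a red fluorescent reporter. The control library came from pooled Isl1+/+ nodes and the mutant library from pooled Isl1f/f nodes, with tamoxifen given to both at embryonic day 10.5 and harvest 36 hours later. The stage is labelled embryonic day 12.5. Nodes were dissected under fluorescence, dissociated, depleted of endothelial cells with CD31 beads and sorted for tdTomato. Isl1 itself, the targeted transcription factor gene, stood at 7.65 RPKM in control nodes and 1.52 RPKM in mutant nodes. RPKM are read numbers scaled to exon length and library size.

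As each genotype had 1 library, there was no replicate spread and no test. Every interval below is an exact 95% interval for counting error only, from the smallest whole read numbers that give the deposited values. By the steps of the values, the totals were 110117186 control and 119018888 mutant reads. Differences are between these libraries, and in a bulk sample fewer cells of a type and less RNA per cell cannot be told apart.

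Haemoglobin carries oxygen and is built from alpha-like and beta-like globin chains around haem. Early mouse embryos are served by primitive red cells from the yolk sac, which make the embryonic chains of Hbb-y, Hbb-bh1 and Hba-x as well as adult alpha chains. Definitive red cells, made first in the fetal liver, carry the adult chains of Hba-a1, Hba-a2, Hbb-b1 and Hbb-b2. Alas2 encodes the red cell form of the first enzyme of haem synthesis, Slc4a1 the anion exchanger band 3 of the red cell membrane, and Car2 a carbonic anhydrase abundant in red cells and found in other tissues too.

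The first 60 coding bases of 5 globin genes show how far the embryonic and adult chains can be told apart by their reads. They come from the GENCODE release M21 transcripts, matched by Ensembl identifier, where Hbb-b1 and Hbb-b2 carry the newer names Hbb-bs and Hbb-bt. Capitals mark bases that differ from Hbb-y in the beta-like chains and from Hba-x in the alpha-like chains.
Hbb-y: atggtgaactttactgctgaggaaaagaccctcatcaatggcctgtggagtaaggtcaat
Hbb-bh1: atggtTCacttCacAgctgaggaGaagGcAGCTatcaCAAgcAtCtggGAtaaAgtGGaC
Hbb-b1: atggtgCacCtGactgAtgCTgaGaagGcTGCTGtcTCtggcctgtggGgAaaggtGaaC
Hba-x: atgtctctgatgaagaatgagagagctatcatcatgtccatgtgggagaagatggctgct
Hba-a1: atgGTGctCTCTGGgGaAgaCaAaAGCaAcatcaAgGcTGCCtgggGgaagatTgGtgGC
In this stretch Hbb-bh1 differed from Hbb-y at 21 bases, Hbb-b1 at 19, and Hba-a1 from Hba-x at 28. Hbb-b2 and Hba-a2 had the same letters here as their adult partners.

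Over the whole coding sequence Hbb-y was 74.3% identical to Hbb-b1 and 76.4% to Hbb-bh1, and Hba-x was 62.0% identical to Hba-a1. Embryonic and adult transcripts shared 0 windows of 90 bases, the read length, so no exact read of that length matches both. The adult pairs were another matter. Hba-a1 and Hba-a2 differed at 1 of 429 coding bases and shared 85.6% of their 90-base coding windows. Hbb-b1 and Hbb-b2 differed at 1 of 444 coding bases and shared 92.1%. The sources used here do not say how reads that match both genes were counted, so the division within each adult pair is uncertain. A read could have been counted in both genes or in neither, so the adult sums could be too high or too low. These identities hold for the reference strain, and the globin alleles of the ICR animals were not analysed here.

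Promoter sequences are shown to describe the genes, and a part of the promoters in the lower mutant values was not tested. Of the 10 genes, 7 matched a RefSeq promoter window (GRCm38.p6). Car2, Hbb-bh1 and Slc4a1 did not match. The 120 bases before the start of 5 genes are shown 5′ to 3′ on the gene's own strand. Capitals mark a match on either strand to the GATA factor motif AGATAA, its form TGATAA, its form AGATAG or its form TGATAG, to the Krüppel-like factor motif CACACCC, its form CCGCCC, its form CACGCCC or its core CACCC, to the motif CCAAT, or to the TATA box form ATAAAA or its form TATAAA. The core CACCC lies within CACACCC and was added after the sequences were seen. In Alas2 the ATAAAA and AGATAA matches overlap.
Hbb-y (chr7:103853208-103853327, minus strand): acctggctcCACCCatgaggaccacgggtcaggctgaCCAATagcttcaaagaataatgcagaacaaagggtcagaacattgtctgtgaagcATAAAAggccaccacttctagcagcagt
Hbb-b1 (chr7:103827929-103828048, minus strand): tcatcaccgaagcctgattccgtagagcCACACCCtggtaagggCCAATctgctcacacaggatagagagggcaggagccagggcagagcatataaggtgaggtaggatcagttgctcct
Hba-x (chr11:32276480-32276599, plus strand): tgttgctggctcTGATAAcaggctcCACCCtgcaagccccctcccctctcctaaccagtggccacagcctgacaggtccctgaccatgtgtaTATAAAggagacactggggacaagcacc
Hba-a1 (chr11:32283552-32283671, plus strand): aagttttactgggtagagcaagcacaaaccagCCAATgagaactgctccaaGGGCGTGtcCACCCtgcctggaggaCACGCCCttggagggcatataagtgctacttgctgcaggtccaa
Alas2 (chrX:150547297-150547416, plus strand): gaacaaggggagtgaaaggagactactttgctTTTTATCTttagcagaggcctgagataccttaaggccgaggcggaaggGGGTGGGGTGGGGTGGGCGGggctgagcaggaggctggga

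CACCC occurred in 7 of the 7 promoter windows from 250 bases before to 50 after the start, and in 57.5% of the 32851 promoter windows of the table. CCAAT was found in 5 of 7, all but Hba-x and Alas2, against 37.4% of all windows. In Hbb-y it began 83 bases before the start, in Hbb-b1 76 and in Hba-a1 88. TGATAA occurred in 4 of 7 windows, against 9.05% of all. In Hba-x it began 108 bases before the start. In Hba-a1 it began 183 bases before, outside the stretch printed above. The form AGATAA was found in 2 of 7 windows, against 11.2% of all, and AGATAG in 1 of 7, against 8.95%. Some GATA form was found in all of the 7 windows but that of Hbb-b2, against 29.8% of all windows. CACACCC was found only in Hbb-b1 among the 7 genes (7.95% of all windows), and CACGCCC in both adult alpha genes (8.44%). CCGCCC was found in 1 of 7, in Alas2, against 35.7% of all windows, and TGATAG in 0 of 7, against 7.29%. The promoters of Hba-a1 and Hba-a2 have nearly the same letters, so their matches are not separate instances. These matches describe letters and not bound sites.

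All 10 genes were lower in mutant nodes. Of all symbols, 67.1% were lower by any amount, and 61.9% of those that reached 5 RPKM in either library. Of the 10 genes, 8 reached 5 RPKM in at least 1 library, and 8 of those 8 were lower past a 2-fold difference in log2(RPKM + 1), a scale that understates the change of low genes. By the same rule 2.68% of 6343 genes were lower and 1.01% higher. Of these 8, 3 (Hba-x, Alas2 and Car2) reached that level in control nodes alone, so for them the level rule itself leans towards a difference. Hbb-bh1 and Slc4a1 lay below 5 RPKM in both libraries. At any level 10 of 10 passed, beside 3.93% of all genes lower and 1.12% higher. Folds in the text are plain ratios of RPKM. They ran from 2.72 to 7.48 with a median log2 ratio of -2.36, beside -0.22 over all genes. The authors' deposited table gives the same log2 values, from -2.90 for Slc4a1 to -1.44 for Hbb-bh1.

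**Figure D1:**
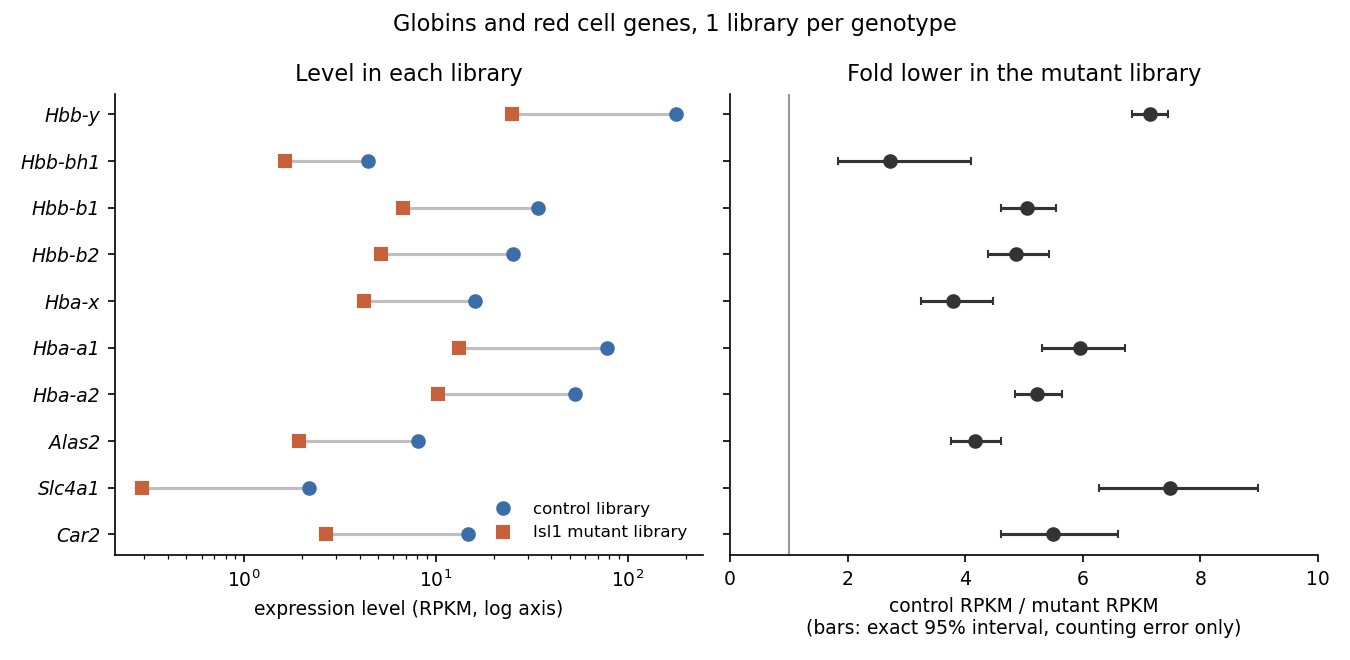
Left, level of each gene in RPKM (log axis) in control nodes (blue circles) and the Isl1 mutant library (orange squares). Right, control RPKM divided by mutant RPKM with exact 95% intervals for counting error. All 10 mutant values lie left of the control values, and the folds run from 2.72 for Hbb-bh1 to 7.48 for Slc4a1.

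Among the embryonic chains, Hbb-y, the epsilon-like beta chain of primitive red cells (chromosome 7, 111000259 to 111001754, minus strand, mm9 as for all gene positions here), stood at 178 RPKM in control nodes and 24.9 RPKM in mutant nodes. It was the highest of the 10 genes in both. By level it ranked 164th in the control table and 1494th in the mutant table. It was 7.14-fold lower (interval 6.84 to 7.45, at least 16032 and 2427 reads). Only 1 of the 6343 genes at 5 RPKM or more had a lower ratio on the log2(RPKM + 1) scale.

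Hbb-bh1, the other embryonic beta-like chain (chromosome 7, 110990150 to 110991678), was the lowest of the globins, at 4.42 RPKM in control nodes and 1.63 RPKM in mutant nodes. It was 2.72-fold lower, with a wide interval of 1.84 to 4.09 from at least 93 and 37 reads. Hba-x, the embryonic zeta chain of the alpha family (chromosome 11, 32176400 to 32178116), stood at 16.0 and 4.21 RPKM and was 3.80-fold lower (3.24 to 4.47). The 3 embryonic chains therefore lay at both ends of the globin folds, with Hbb-y the furthest down and Hba-x and Hbb-bh1 the least. The interval of Hbb-y did not overlap those of the other two.

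The adult chains lay between. Hba-a1 (chromosome 11, 32183511 to 32184465) stood at 78.3 RPKM in control nodes and 13.1 RPKM in mutant nodes, 5.96-fold lower (5.30 to 6.72). Hba-a2 (chromosome 11, 32196489 to 32197301) stood at 53.3 and 10.2 RPKM, 5.23-fold lower (4.84 to 5.64). Their intervals overlap. The Hba-a1 to Hba-a2 ratio was 1.47 in control nodes and 1.29 in mutant nodes, and the interval of the change was 0.761 to 1.01. That interval includes no difference, but it rests on the smallest possible reads. With a multiple of these reads it would be narrower, so a change of this ratio is not excluded. Hbb-b1 (chromosome 7, 110975048 to 110976610) stood at 33.9 and 6.71 RPKM, 5.05-fold lower (4.61 to 5.54). Hbb-b2 (chromosome 7, 110961038 to 110962510) stood at 25.2 and 5.17 RPKM, 4.87-fold lower (4.39 to 5.42). The ratio of these 2 genes was 1.34 and 1.30, with an interval of the change of 0.838 to 1.11 under the same limit.

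Alas2 (chromosome X, 146981918 to 147005181) stood at 8.02 RPKM in control nodes and 1.93 RPKM in mutant nodes, 4.16-fold lower (3.76 to 4.62). It lies inside the coordinates of Apex2, a gene of the opposite strand at 1.47 and 1.28 RPKM, and the counting is not stated to use strand. Car2 (chromosome 3, 14886426 to 14900769) stood at 14.6 and 2.66 RPKM, 5.50-fold lower (4.61 to 6.59). Slc4a1 (chromosome 11, 102210138 to 102227517) had the lowest values of the 10, at 2.19 and 0.292 RPKM, and the largest ratio, 7.48-fold lower (6.28 to 8.98). Its interval contains that of Hbb-y, so the order of these 2 genes was not resolved by counting.

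Ratios in this pair of libraries moved with level. Genes within 1.25-fold of the control level of Slc4a1 had a median mutant to control ratio of 0.733, those at the level of Hbb-bh1 0.806 and those at the level of Hbb-y 1.04. Among the 95 such genes for Hbb-y, 0 had a lower ratio. The same count was 0 of 227 for Hba-a1, 0 of 344 for Hba-a2 and 0 of 1136 for Car2, but 58 of 1651 for Hbb-bh1 and 37 of 1660 for Slc4a1.

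**Figure D2:**
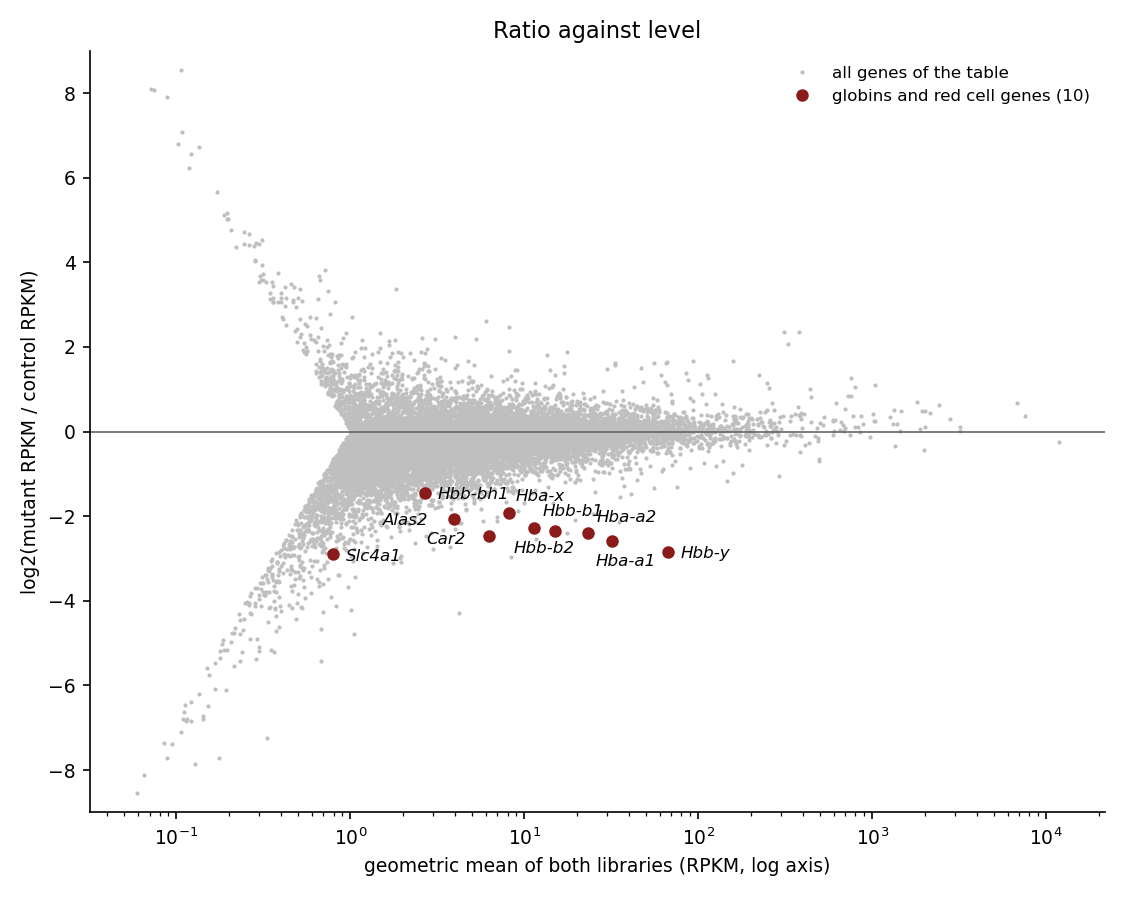
Log2 of mutant over control RPKM against the geometric mean of both libraries in RPKM (log axis), with 1 grey point per gene and the 10 globin and red cell genes in dark red. The empty wedge at the left comes from the table's limit of 1 RPKM in at least 1 library. Hbb-y, Hba-a1 and Hba-a2 lie below the cloud. For Slc4a1, 37 of 1660 genes of like control level had a lower ratio, a set matched on control level and not on this axis.

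All 7 globin genes together made 389 RPKM in control nodes and 65.97 RPKM in mutant nodes, 0.156% and 0.0253% of all RPKM in the table, a total 5.90-fold lower. The beta-like sum was 6.28-fold lower (241 to 38.4 RPKM) and the alpha-like sum 5.36-fold lower (148 to 27.5 RPKM). The alpha-like to beta-like ratio was thus 0.611 in control nodes and 0.716 in mutant nodes. Hbb-y alone made 45.8% of globin RPKM in control nodes and 37.8% in mutant nodes.

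The embryonic and adult chains were then compared within each library. In the beta family the embryonic chains dominated both libraries. Their share of beta-like RPKM was 75.5% in control nodes and 69.1% in mutant nodes. In the alpha family the adult chains dominated, and Hba-x made 10.8% of alpha-like RPKM in control nodes and 15.3% in mutant nodes. The embryonic share was therefore lower in mutant nodes for beta-like chains and higher for alpha-like chains. The levels of these shares and of the alpha-like to beta-like ratio also depend on how reads shared within the adult pairs were counted. The spread of these shares between litters or pools is unknown.

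Ratios of single genes show which chains carried these differences, with counting intervals on the change of each ratio. Hbb-y exceeded Hbb-b1 by 5.25-fold in control nodes and 3.72-fold in mutant nodes, a ratio 0.708 times as high (0.640 to 0.784). Against Hbb-b2 the excess went from 7.06 to 4.82. Hbb-bh1, by contrast, stood at 0.0248 of Hbb-y in control nodes and 0.0653 in mutant nodes, 2.63 times as high (1.74 to 3.90). The 2 embryonic beta-like genes therefore did not keep a common ratio, and the share of Hbb-bh1 among beta-like chains was 1.83% and 4.23%.

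In the alpha family Hba-x stood at 0.204 of Hba-a1 in control nodes and 0.321 in mutant nodes, 1.57 times as high (1.28 to 1.92). Against Hba-a2 the factor was 1.38 (1.15 to 1.64). Between the families, Hba-x to Hbb-y was 1.88 times as high in mutant nodes (1.59 to 2.22). Hba-x to Hbb-bh1 differed by a factor of 0.715, with an interval of 0.467 to 1.11. That interval includes no difference but can be too wide, as the true reads can be a multiple of the smallest. The red cell genes outside the globins were uneven too. Hbb-y to Alas2 was 0.583 times as high in mutant nodes (0.521 to 0.652), whereas Hbb-y to Slc4a1 was 1.05 times as high (0.874 to 1.26).

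**Figure D3:**
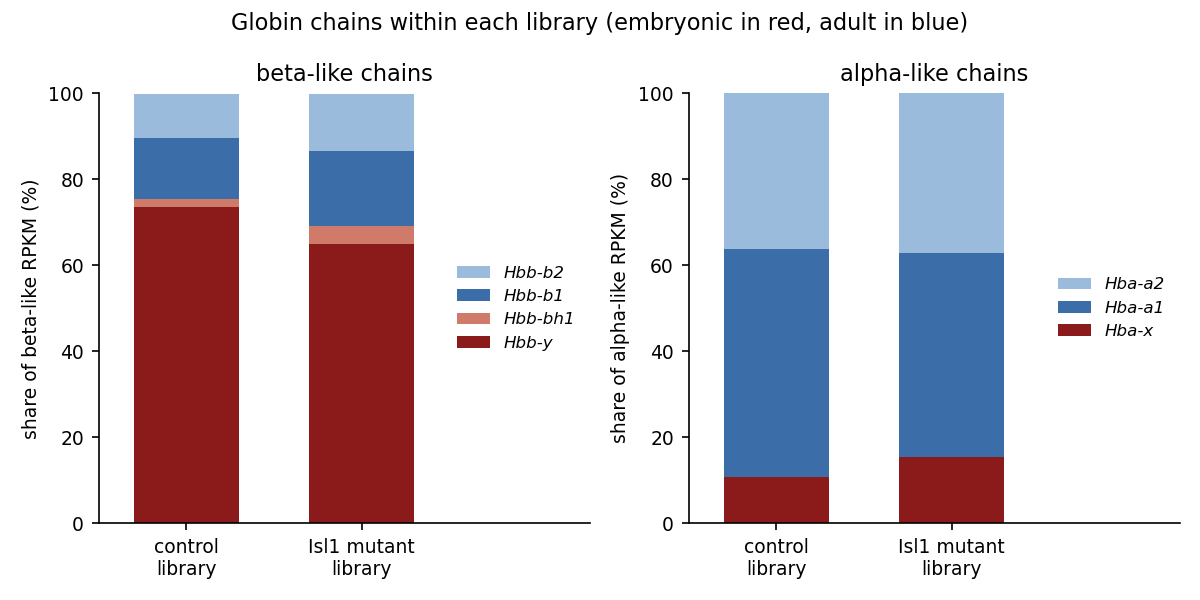
Share in percent of beta-like RPKM (left) and alpha-like RPKM (right) made by each gene in each library, with embryonic chains in red and adult chains in blue. The embryonic part of the beta-like bar is 75.5% in control nodes and 69.1% in mutant nodes, and that of the alpha-like bar 10.8% and 15.3%.

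The beta-like genes lie within 40.7 kb of chromosome 7 and the alpha-like genes within 20.9 kb of chromosome 11. Of 8 other genes within 500 kb of the alpha-like genes, 7 were lower and 1 was higher, and the 4 closest were 1.06-fold higher to 1.17-fold lower. Nprl3, whose introns hold the enhancers of the alpha-globin genes and which lies 8.69 kb away, stood at 7.90 and 7.02 RPKM, 1.13-fold lower. Snrnp25, Mpg and Rhbdf1, all within 67.4 kb, stood at 10.5 and 11.1, 3.48 and 3.31, and 2.25 and 1.92 RPKM. The alpha-like globin genes were 3.80-fold to 5.96-fold lower. Further out, Stk10, a kinase gene 236 kb away, stood at 1.08 and 0.342 RPKM, 3.17-fold lower. On chromosome 7 the nearest other gene of the table, Trim6, lay 366 kb from the beta-like genes, at 2.69 and 1.59 RPKM. The other 3 genes within 500 kb there, Trim12a, Trim34b and Trim12c, were higher in mutant nodes, Trim12a by 16.4-fold (0.0698 and 1.14 RPKM). The coordinates of these 3 overlap, so they may not be separate instances. Trim12a and Trim34b reached 1 RPKM in mutant nodes alone, and Stk10 in control nodes alone. Genes that low enter the table only through their higher library. Trim6, Stk10, Trim12a, Trim34b and Trim12c were named after their values were seen.

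**Figure D4:**
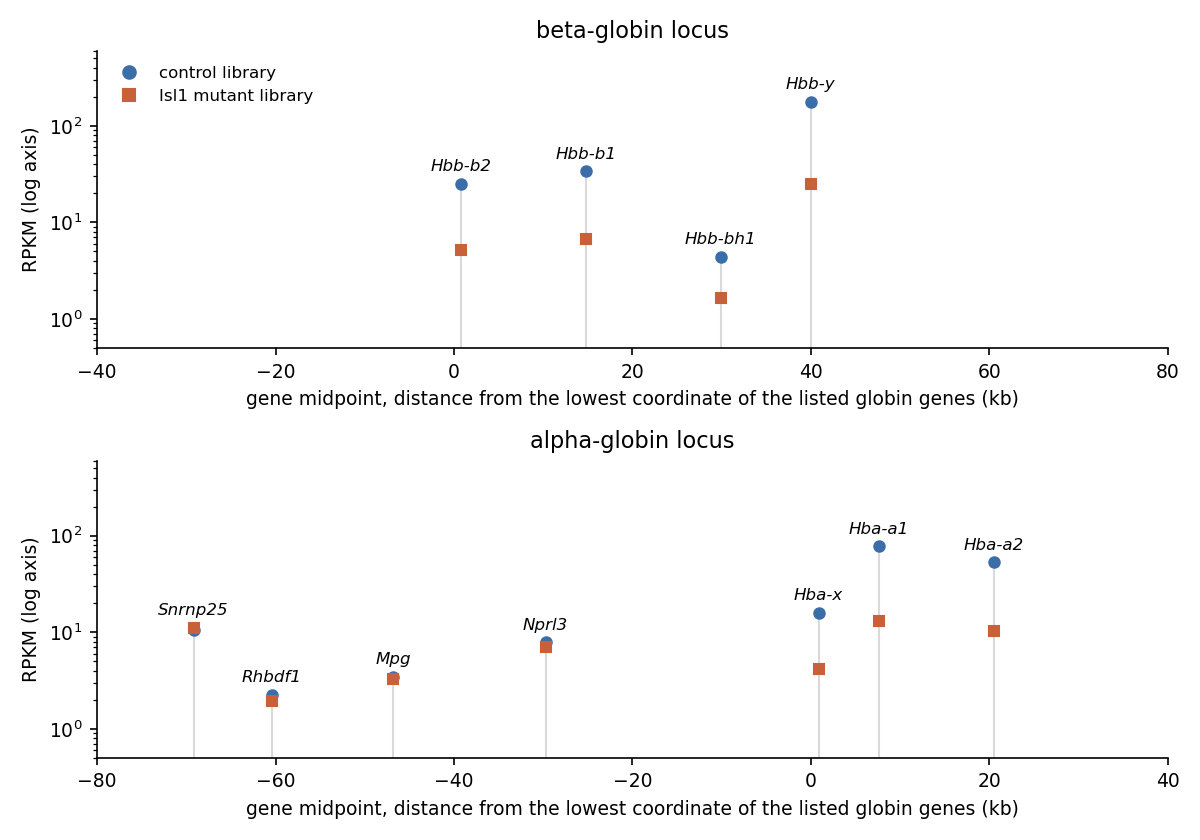
Level in RPKM (log axis) of the genes at the beta-globin locus (top) and the alpha-globin locus (bottom) in control nodes (blue circles) and the Isl1 mutant library (orange squares), by distance in kb from the lowest coordinate of the listed globin genes. The 7 globin genes are lower in mutant nodes, while the symbols of Nprl3, Mpg, Rhbdf1 and Snrnp25 nearly coincide.

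Other genes of red cell biology were compared by list, 67 measured genes in all, 7 of them from a list of alpha-globin neighbours. Of these, 36 reached 5 RPKM in at least 1 library, and 0 were lower past the same 2-fold rule, where 2.68% of all genes at that level were. Higher was 1 gene, Slc2a1, the glucose transporter GLUT1 gene, at 140.3 and 355 RPKM, against 1.01% of all. By plain ratio 10 of the 67 (14.9%) were at least 2-fold lower, a share near the 13.8% of all genes, and 2 (Slc2a1 and Mb) were at least 2-fold higher, beside 3.29% of all. Within 1.5-fold were 51 of the 67, and 65.4% of all genes.

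Haem synthesis genes, which every cell uses, stayed near equal, with 12 of 12 measured genes within 1.5-fold and a median log2 ratio of -0.14. Alas1, the form of the first haem enzyme made in all tissues, stood at 31.2 and 27.9 RPKM, 1.12-fold lower (1.07 to 1.16), beside 4.16-fold for its red cell counterpart Alas2. Tmem14c, a mitochondrial porphyrin carrier gene, stood at 33.5 and 34.9 RPKM. Iron genes had a median of -0.09, with 10 of 12 within 1.5-fold. The ferritin chains Ftl1 and Fth1, which store iron, stood at 613 and 712 and at 481 and 449.8 RPKM, and Aco1, which senses iron, at 16.0 and 14.0 RPKM. The other 2 iron genes were named after their values were seen. Slc25a37, the mitochondrial iron importer mitoferrin of red cells, stood at 2.11 and 0.932 RPKM, 2.27-fold lower (2.09 to 2.47). Slc25a28, the mitoferrin of other tissues, stood at 1.66 and 0.802 RPKM, 2.07-fold lower (1.63 to 2.64).

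Genes of the red cell membrane and cytoskeleton, 13 measured of 24 symbols listed with older and newer names, split. Tmod1, an actin filament capping gene also made in heart muscle, stood at 155 and 195 RPKM, and Gypc, a glycophorin gene of many tissues, at 19.5 and 20.4 RPKM. Of the genes at least 2-fold lower by plain ratio, those described next were named after their values were seen. Rhag, the Rh-associated glycoprotein gene, stood at 1.46 and 0.177 RPKM, 8.25-fold lower (5.28 to 13.5). Ermap, an erythroid membrane protein gene, stood at 1.64 and 0.176 RPKM, 9.31-fold lower (5.23 to 18.0). Kel, the Kell blood group gene, stood at 1.57 and 0.672 RPKM, 2.34-fold lower (1.97 to 2.79).

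Aqp1, a water channel gene, stood at 1.22 and 0.583 RPKM. In that list 5 of 13 genes had a plain ratio of 2 or more downwards, beside 13.8% of all genes. Of the 13, 4 reached 1 RPKM in control nodes alone, and genes that low enter the table only through their higher library. Other genes of the list differed little, among them Spnb1, the red cell beta spectrin gene, at 3.84 and 3.78 RPKM (1.02-fold, 0.975 to 1.06), and Epor, the erythropoietin receptor gene, at 1.70 and 1.41 RPKM. These 2 were also named after their values were seen.

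Of 17 symbols of red cell enzymes and chaperones listed, some of them older and newer names of 1 gene, 11 were in the table, and 11 of 11 lay within 1.5-fold, with a median log2 ratio of -0.07. Prdx2, an antioxidant enzyme abundant in red cells and made in most tissues, stood at 91.0 and 86.7 RPKM, Adk, the adenosine kinase gene, at 82.2 and 88.5 RPKM, and Gpx1, a glutathione peroxidase gene, at 52.6 and 51.3 RPKM. Of 11 erythroid transcription factors and partners listed 3 were in the table, which holds genes of at least 1 RPKM in either library, and all 3 were low. Gfi1b, a repressor gene of red cell and platelet precursors, stood at 1.29 and 0.216 RPKM, 5.97-fold lower (4.25 to 8.59), Lmo2, a bridging factor, at 1.03 and 0.430 RPKM (2.40-fold, 1.05 to 5.99), and its partner Ldb1, which most cells make, at 2.69 and 2.02 RPKM. Gata1, Klf1 and Tal1 were on that list and had no entry under these symbols in the table, so they were not measured.

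Regulators of the switch from embryonic to adult globin had a median of -0.35 over 7 genes. Chd4, a chromatin remodeller of all cells, stood at 24.9 and 13.4 RPKM, Mbd2 at 3.28 and 2.57 RPKM and Nr2c1, a nuclear receptor that binds embryonic globin promoters, at 2.86 and 4.98 RPKM. Bcl11a, a repressor of embryonic globin genes, stood at 1.09 and 0.947 RPKM (1.15-fold lower, 0.964 to 1.37) and was named after its values were seen. Of the globins of other cells 2 were measured, and they differed in direction. Mb, the myoglobin gene of muscle, stood at 1.55 and 4.33 RPKM, 2.79-fold higher (2.38 to 3.28), and Cygb, the cytoglobin gene, at 1.24 and 0.610 RPKM, 2.04-fold lower (1.66 to 2.52).

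**Figure D5:**
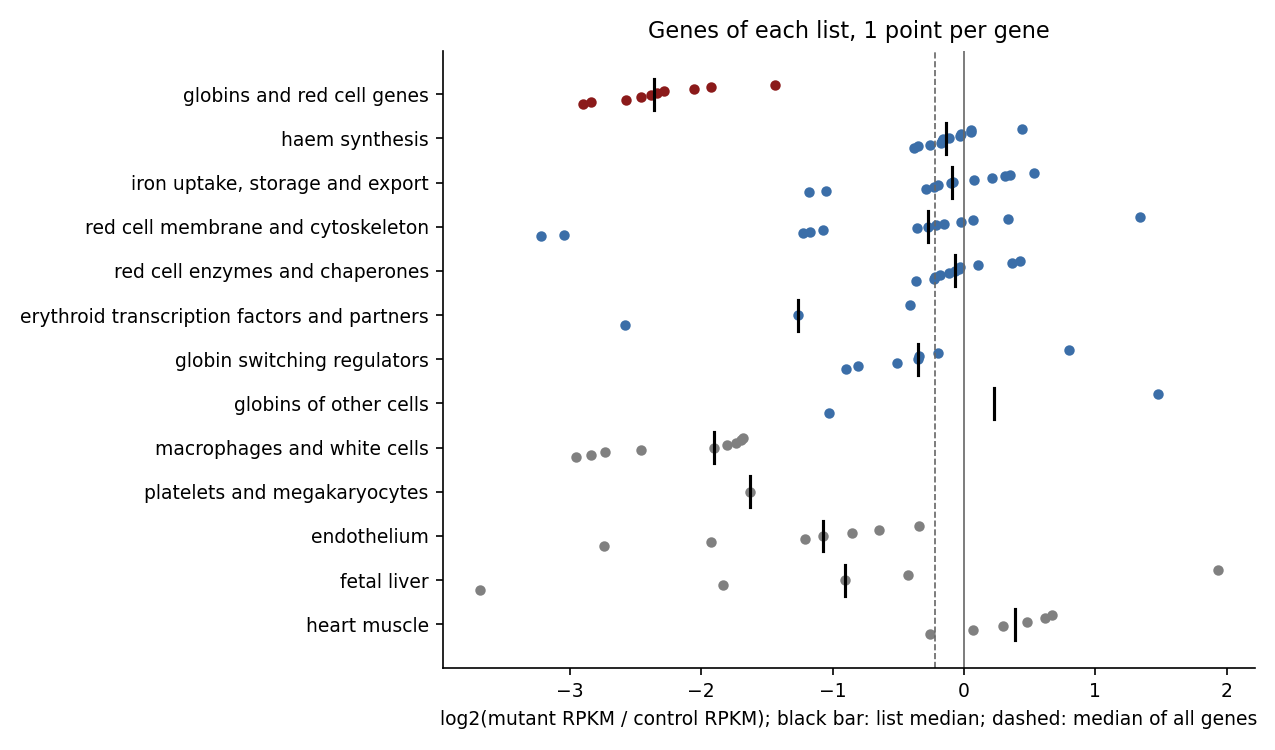
Log2 of mutant over control RPKM by list, with 1 point per gene, the list median as a black bar and the median of all genes (-0.22) as a dashed line. The lists of node cells and of alpha-globin neighbours are not shown. The 10 globin and red cell genes have a median of -2.36, haem synthesis genes -0.14, red cell enzymes -0.07 and macrophage markers -1.91.

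Counts of lower genes among cell type markers stand beside the 67.1% of all genes that were lower. A gene that reached 1 RPKM in control nodes alone entered the table only through its higher library, which leans these counts towards lower. Markers of the node cells other than Isl1, the targeted gene, were lower in 4 of 4, their sum going from 31.5 to 16.4 RPKM. Among them Hcn4, whose promoter drives the Cre, stood at 1.99 and 0.541 RPKM and reached 1 RPKM in control nodes alone. The macrophage and white cell markers were lower in 9 of 9 measured genes of 12 listed. Of these 9, 6 reached 1 RPKM in control nodes alone. The sum of the 9 went from 47.0 to 8.68 RPKM, 5.42-fold lower, and 0 of the 9 were listed at 0. Laptm5, a lysosomal gene of blood cells, led them at 23.2 and 2.99 RPKM. Of 8 platelet and megakaryocyte markers listed 1 was in the table, Itga2b, at 2.20 and 0.711 RPKM. It reached 1 RPKM in control nodes alone. Endothelial markers were lower in 7 of 7, 2 of which reached 1 RPKM in control nodes alone, with a sum of 32.4 and 18.0 RPKM. Liver markers were lower in 4 of 5, with a sum of 37.7 and 21.4 RPKM, 1.76-fold lower. Of them 1 was lower past the 2-fold rule, Afp, the alpha-fetoprotein gene, at 10.6 and 2.98 RPKM, 3.57-fold lower (3.29 to 3.88). Their values were uneven, with Alb, the albumin gene, at 3.49 and 0.272 RPKM. Trf, the transferrin gene and highest of the list, stood at 22.3 and 16.6 RPKM, and Ttr, the transthyretin gene, was higher at 0.274 and 1.05 RPKM. Of these 5 markers, 2 reached 1 RPKM in control nodes alone, and Ttr did so in mutant nodes alone. Heart muscle genes were higher in 5 of 6, and Tnnt2, the cardiac troponin T gene, at 2535 and 3109 RPKM, stood far above any globin. The part of these cell types in the globin values was not tested.

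The genes most like the 10 in size of difference, outside all lists, were those with the nearest log2(RPKM + 1) ratio to their median of -2.09. Over 2 libraries this is a likeness of 1 ratio only. They were Mfap4, a microfibril gene (73.2 and 16.6 RPKM), Pdgfra, a growth factor receptor gene of mesenchyme (9.53 and 1.45 RPKM), and Mylk, the myosin light chain kinase gene (5.71 and 0.670 RPKM). Next came Pam, which encodes an enzyme of peptide amidation (40.4 and 9.44 RPKM), and Sqrdl, a mitochondrial sulfide oxidation gene (5.19 and 0.602 RPKM).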

How the data were processed

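RNA from sorted node cells (1 control and 1 Isl1 mutant library, paired 90 bp reads, oligo(dT) selection, SMARTer kit per the labels' protocols) was measured per gene. The submitters' processing notes list Trim Galore, FastQC, TopHat2, Bowtie2 and build mm9. The sources used here name no tool for the gene table. The authors deposited 1 value per gene and library over constitutive exons, identified as RPKM because, for 288 genes under 200 bp, 285 control and 277 mutant values correspond to whole reads (tolerance 0.01). The deposited log2 fold change equals the log2 ratio of these values, and a further deposited column, the signed linear fold (unit score), was left out. The table lists genes with at least 1 RPKM in either library.

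Here the smallest whole reads and exon length giving both values were found, so the true reads of each gene can be a multiple of its own, intervals can be too wide, and shares of reads between genes are not given. Intervals are exact binomial or conditional odds ratio intervals (scipy 1.17.1), and cover counting error only. PCR copies are not independent molecules, nor are the reads of a pair if counted singly, so intervals can also be too narrow. A gene counted as past 2-fold when log2((mutant + 1)/(control + 1)) was at least 1 in size with 5 RPKM in either library. Of entries sharing a symbol, that with the highest mean was kept. The level correction, an alternative only, subtracts the median ratio of 10 level bins. The methods were tested on simulated data.

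Named genes were the 10, those of the lists past 2-fold, up to 3 per list with the highest control level, and the 5 nearest in ratio. Some results that this rule would name are not reported here. The chromosome 11 neighbours Nprl3, Mpg, Rhbdf1 and Snrnp25 came from a list of which other members lie elsewhere in the mouse genome. The genes and lists were chosen with earlier results of these data known. Other pseudocounts, scalings, floors, thresholds and ways to sum the adult pairs were tried.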

Additional observations from a re-analysis of the deposited data

How the results depend on the processing

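The count of 8 genes lower by 2-fold stayed within 1.5 times (6 to 10) under other pseudocounts, scalings, thresholds, a floor of 1 RPKM and summed adult pairs. The 6 came from summing each adult pair, which leaves 8 units in place of 10 genes, and the 10 from a floor of 1 RPKM. With a floor of 20 RPKM, which fewer of the genes reach, the count was 5. Among the other red cell genes, 0 lower and 1 higher became 2 lower and 2 higher with a floor of 1 RPKM, 2 lower at 1.5-fold and 0 higher at 3-fold. The beta-like embryonic share, -6.44 percentage points in mutant minus control, was -4.49 with Hbb-b1 alone and -4.16 with Hbb-b2 alone. The alpha-like share, 4.45 points, was 7.31 with Hba-a1 alone. The factor between the alpha-like to beta-like ratios, 1.17, was 1.27 with the mean of each adult pair. No direction reversed under these settings, but Hbb-bh1 alone was not tried as the embryonic beta-like chain. Its share of beta-like RPKM was 1.83% in control nodes and 4.23% in mutant nodes, the other direction from the summed embryonic share. The smaller adult sums follow from counting 1 gene of a pair. No paired analysis was possible because each genotype has 1 library. Read numbers limit Hbb-bh1 most, with at least 37 mutant reads.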
